A study of Mus musculus with 16 samples.

Results

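The genes described here are the Wnt ligands, their receptors and their regulators. They were chosen by symbol as every numbered Wnt, Fzd, Sfrp, Dkk and Rspo gene, Lgr4, Lgr5 and Lgr6, and the 7 single genes Lrp5, Lrp6, Axin2, Znrf3, Rnf43, Lef1 and Tcf7. The rule gave 51 genes: 19 Wnt, 10 Fzd, 4 Sfrp, 4 Dkk, 4 Rspo, 3 Lgr and the 7 single genes. Among the 24722 genes measured in glomeruli there were 49 members, and among the 34264 measured in cortex there were 50, with 48 in both. Dkk4 and Wnt8a were not analysed here in glomeruli, nor Rspo4 in cortex.

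Wnt proteins are secreted lipid-modified ligands that bind Frizzled receptors (Fzd). With the co-receptors Lrp5 or Lrp6 they stop the breakdown of beta-catenin, which then acts on target genes with the DNA-binding proteins Lef1 and Tcf7, while Wnt5a, Wnt5b and Wnt11 are best known for signalling without beta-catenin. The Sfrp proteins bind Wnts outside the cell, and the classical Dkk proteins block the co-receptors. The ubiquitin ligases Znrf3 and Rnf43 remove Frizzled receptors from the cell surface, and R-spondins (Rspo), bound to Lgr4, Lgr5 or Lgr6, hold those ligases back. In the kidney, Wnt9b and Wnt4 drive formation of the nephron, Wnt7b acts in the collecting duct, and raised beta-catenin signalling in podocytes is known to accompany proteinuria.

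The series holds RNA-seq of glomeruli, the capillary tufts where blood is filtered, and of renal cortex, all from wild-type mice aged 24 weeks. The diabetic mice were an HFD/STZ model, in which a high-fat diet and the beta-cell toxin streptozotocin are used together, and the control mice had the label control with no further description. Each of the 4 groups had 4 libraries, all of batch 1, and the groups do not separate diet, streptozotocin and the diabetic state. No label says whether libraries stem from different animals, and the p-values therefore reflect sample-to-sample spread alone, part of which may be technical.

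Total counts were 36339294 to 41876031 per glomerular library and 57473100 to 72352656 per cortex library. In the glomeruli, control libraries 3 and 4 (chi-square per gene of 2.76, against 45.7 to 84.4 for the other control pairs) and diabetic libraries 1 and 4 (6.69, against 66.2 to 97.9) differed far less than any other pair of their group. Each pair was summed and counted as 1 sample, which left 3 control and 3 diabetic glomerular samples. All 12 podocyte markers were higher in control glomeruli than in control cortex, and all 14 proximal tubule markers were lower. Smooth muscle and renin cell markers summed to 17926 to 20396 CPM (read counts per 1000000 on TMM-scaled library sizes) in control glomeruli and to 265 to 344 CPM in control cortex. In diabetic glomeruli they summed to 3660 CPM in the summed pair, 4253 CPM in diabetic 2 and 6395 CPM in diabetic 3. How the glomeruli were isolated, and whether they were cultured, is not stated in the labels. In diabetic glomeruli 11 of 14 proximal tubule markers and 10 of 13 distal nephron markers tested rose, while 6 of 9 smooth muscle and renin markers, 4 of 10 stromal, 4 of 10 mesangial and 4 of 12 podocyte markers fell (edgeR). Of 9 parietal epithelial markers 5 rose (Krt8, Krt18, Scin, Pax2 and Cldn1) and Ncam1 fell. The sum of all 9 was 1209, 1682 and 1495 CPM in the control samples, against 3131, 3703 and 2533 CPM in the diabetic samples. Most of that rise lay in Krt8 (1056, 1264 and 600 CPM in the diabetic samples) and Krt18 (514, 615 and 326 CPM). In controls they reached 19.1 and 12.9 CPM at most. In such bulk samples, fewer cells of a type and less RNA per cell cannot be told apart.

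In diabetic against control glomeruli, 23 of the 37 members that passed the filter on low counts were called at an edgeR adjusted p under 0.05, 14 higher and 9 lower. Over all 15238 genes tested 37.5% were called, 19.4% higher and 18.2% lower. The ligands were mostly higher, with 7 of 12 tested Wnt genes raised (Wnt7a, Wnt7b, Wnt10a, Wnt9b, Wnt9a, Wnt10b and Wnt4) and only Wnt5b lowered. Both tested Dkk genes and both tested Rspo genes fell, and the Frizzled and Lgr families were split. The groups did not overlap for 28 of the 37 members, against 54.2% of all genes tested, and for none of the 23 called members did they overlap. Overlap and call were read from the same samples, so the lack of overlap in called members is no separate support. The median log2 fold change was 0.01 over the 37 members and 0.01 over all genes.

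**Figure D1:**
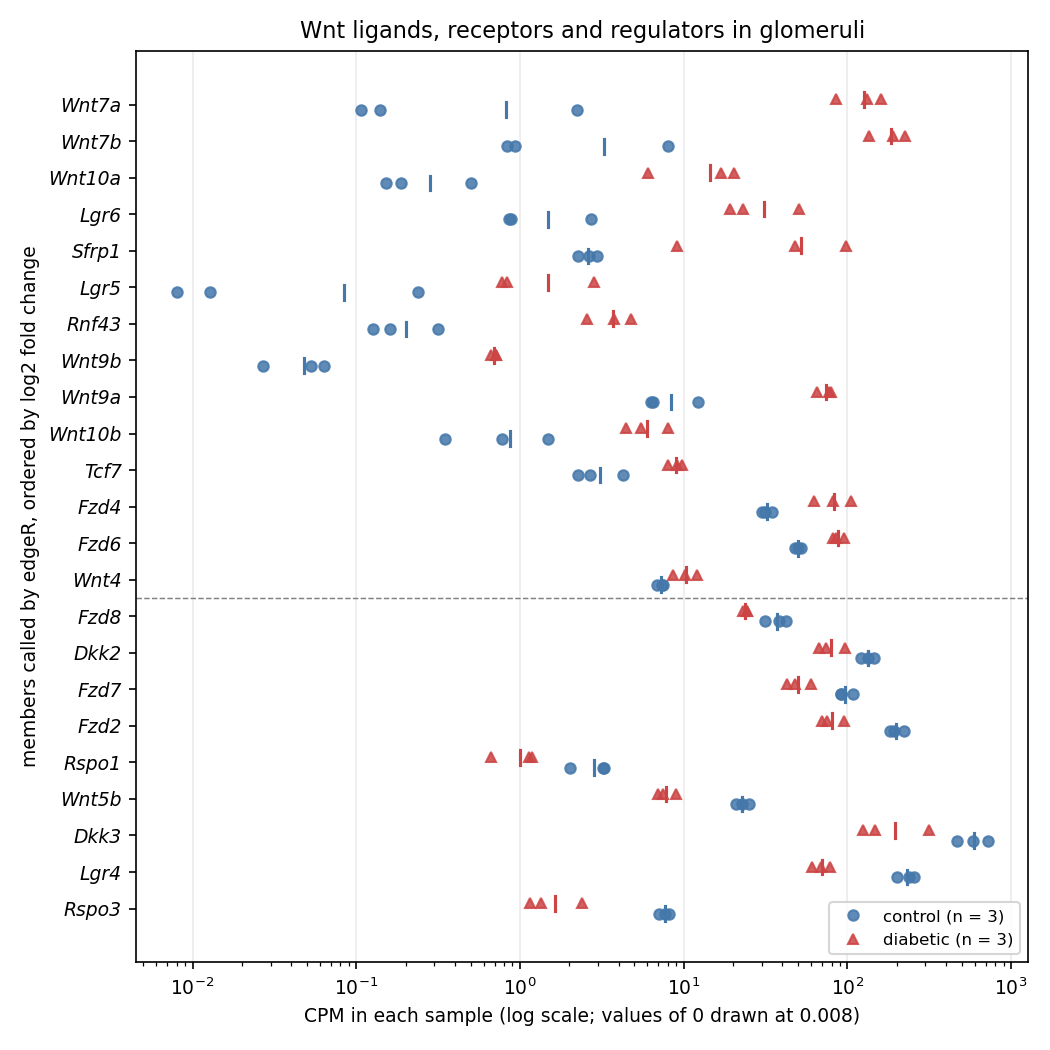
CPM on a log axis in each of the 3 control samples (blue circles) and 3 diabetic samples (red triangles) of glomeruli, for the 23 members called by edgeR, ordered by log2 fold change; vertical ticks are group means and the dashed line parts higher from lower. Wnt7a is at the top with means of 0.823 and 126 CPM, Rspo3 at the bottom with 7.64 and 1.63 CPM, and control sample 2 lies apart from the other controls for Wnt7a and Wnt7b.

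The sequence just before the start of 3 members is shown because their transcripts changed most or in opposite directions: Wnt7a had the largest log2 fold change of the members, and Lgr4 and Lgr6, receptors of the same family, moved opposite ways. Each line gives the 250 bases upstream of the RefSeq start on GRCm38.p6, 5′ to 3′ on the gene's strand. Wnt7a lies on the minus strand (chr6:91411354-91411603), Lgr4 on the plus strand (chr2:109917397-109917646) and Lgr6 on the minus strand (chr1:135105277-135105526). Capitals mark matches to GGAATG, the core letters bound by TEAD factors of the Hippo pathway, read on either strand.
Wnt7a: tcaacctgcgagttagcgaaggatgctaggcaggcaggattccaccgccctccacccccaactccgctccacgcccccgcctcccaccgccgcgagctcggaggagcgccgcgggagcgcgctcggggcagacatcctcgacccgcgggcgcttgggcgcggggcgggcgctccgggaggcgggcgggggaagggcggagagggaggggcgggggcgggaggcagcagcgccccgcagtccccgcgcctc
Lgr4: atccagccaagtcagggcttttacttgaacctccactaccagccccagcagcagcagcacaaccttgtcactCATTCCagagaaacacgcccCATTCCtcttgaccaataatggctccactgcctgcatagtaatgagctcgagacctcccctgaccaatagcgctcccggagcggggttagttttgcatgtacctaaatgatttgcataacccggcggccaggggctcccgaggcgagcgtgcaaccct
Lgr6: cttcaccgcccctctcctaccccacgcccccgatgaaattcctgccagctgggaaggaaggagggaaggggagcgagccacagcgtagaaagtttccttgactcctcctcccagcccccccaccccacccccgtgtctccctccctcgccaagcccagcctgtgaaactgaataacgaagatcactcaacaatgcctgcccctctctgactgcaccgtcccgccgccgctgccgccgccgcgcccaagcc
The Lgr4 window held 2 such matches, starting at -178 and -158 from the start, and the other two held none. The Wnt7a window was 77.6% G and C, Lgr6 65.2% and Lgr4 55.6%. A window was given by RefSeq for 33 members (41 windows). Of these, 1 member had a TEAD match, 3 had a TCF/LEF match (CTTTGAT or CTTTGAA, either strand; Wnt5b, Wnt11 and Dkk1) and 1 had an AP-1 match (TGANTCA; Wnt5b). Counted per gene in the same way, 14.36% of all 27025 genes with a window held the TEAD letters, 8.633% the TCF/LEF letters and 7.819% the AP-1 letters. A match describes the letters and is not evidence of binding.

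Glomerular values below are in the order control 1, control 2 and the summed control pair, then the summed diabetic pair, diabetic 2 and diabetic 3. Wnt7a, on the minus strand of chr6:91363981-91411363, was at 0.107, 2.22 and 0.14 CPM in controls, against 131, 161 and 85.2 CPM in diabetic samples. The highest control was far under the lowest diabetic sample, and the mean was 153-fold higher (log2 fold change 7.42 ± 0.98, SE; edgeR adjusted p = 0.00233). Wnt7b, on chr15:85535437-85582473, is the closest relative of Wnt7a among these genes, and went from 0.833, 8.07 and 0.928 CPM to 190, 226 and 136 CPM. Its groups lay apart by a wide margin (56.2-fold higher mean; log2 fold change 5.86 ± 0.94; adjusted p = 0.0045). Control sample 2 was the highest control for both. Without it the log2 fold changes were 9.90 for Wnt7a and 7.68 for Wnt7b, and without the summed control pair that of Wnt7a was 6.74. Krt8, a keratin on the parietal epithelial list, had the same order, as did Krt18. It was at 2.26, 19.1 and 2.48 CPM in controls, against 1056, 1264 and 600 CPM in diabetic samples. The sum of the 9 parietal epithelial markers was highest in control 2 and in diabetic 2 of their groups. It includes Krt8 and Krt18 and is no separate support. Krt8 is no marker of glomeruli in these data. It was at 98.3 to 108 CPM in control cortex, above its values in control glomeruli, with the tissues normalized separately. Of the 9 markers, 3 were higher and 4 lower in control glomeruli than in control cortex. The part of these markers in the Wnt values was not tested.

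**Figure D2:**
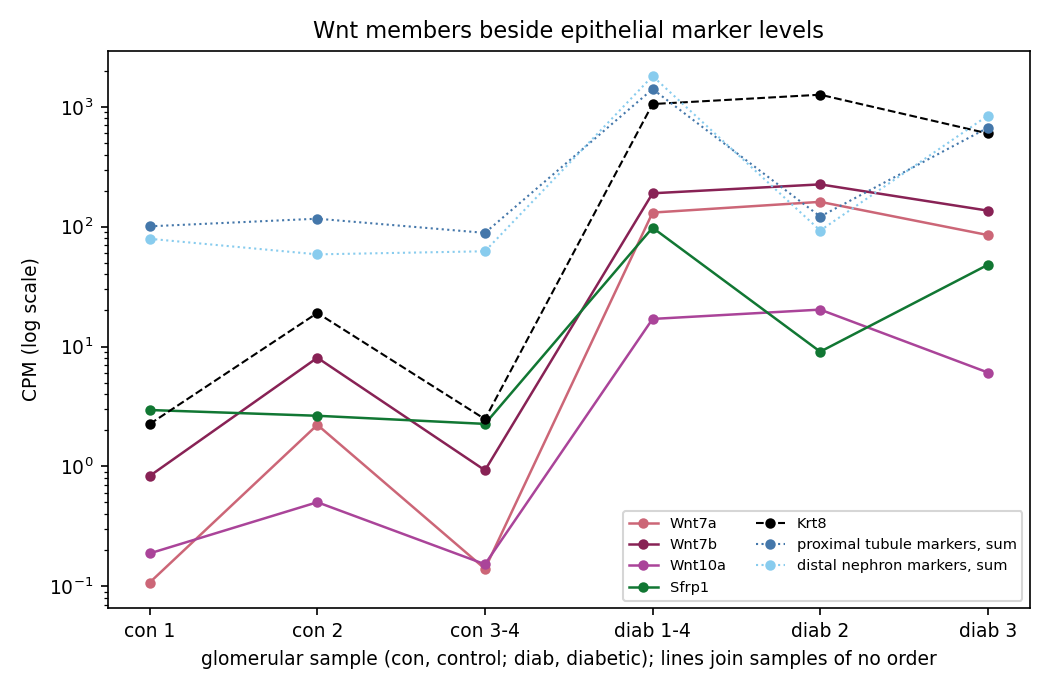
CPM on a log axis in the 6 glomerular samples for 4 Wnt members (solid lines), Krt8 (dashed) and the summed proximal tubule and distal nephron markers (dotted); lines join samples that have no order. Wnt7a, Wnt7b, Wnt10a and Krt8 share a high control 2 and are highest in diabetic 2, whereas Sfrp1 and both tubule sums are lowest in diabetic 2 among the diabetic samples.

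Wnt10a, a beta-catenin ligand known from skin and teeth, was at 0.188, 0.503 and 0.153 CPM in controls, against 17, 20.3 and 6.08 CPM in diabetic samples. Diabetic 3 was the lowest of its group and still above every control (51.5-fold; log2 fold change 5.75 ± 0.67; edgeR adjusted p = 0.0016, and 6.42 without control 2). Wnt9a was at 6.47, 12.3 and 6.33 CPM in controls, against 65.6, 77.5 and 79.5 CPM in diabetic samples. The diabetic samples were close together, 8.87-fold above the controls in the mean (log2 fold change 3.16 ± 0.28; adjusted p = 0.000776). Wnt10b rose from 0.349, 1.48 and 0.776 CPM to 4.46, 5.46 and 8.03 CPM, with diabetic 3 highest (6.88-fold; adjusted p = 0.00806). Wnt9b stayed low in both groups, at 0.0269, 0.0529 and 0.0636 CPM and then 0.71, 0.662 and 0.715 CPM. That is 8 counts over the control group and 117 over the diabetic group (log2 fold change 3.72 ± 0.40; adjusted p = 0.00119). Wnt4, which acts in the forming nephron and in myofibroblasts, rose least, from 7.36, 7.43 and 6.88 CPM to 8.58, 10.2 and 12 CPM (log2 fold change 0.51 ± 0.16; adjusted p = 0.0486). Its call was lost in 8 of 15 alternatives, among them leaving out each control sample, diabetic 2 or diabetic 3.

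Wnt5b moved the other way, from 22.7, 25 and 20.8 CPM to 6.98, 8.95 and 7.46 CPM. All diabetic samples were well under all controls, with the mean at 0.341 of the control mean (log2 fold change -1.55 ± 0.14; edgeR adjusted p = 0.000731). The other 4 tested ligands were not called. Wnt5a, a close relative of Wnt5b, was at 46.9, 63.1 and 49.2 CPM and 35.5, 39.7 and 58.4 CPM, with overlapping groups (log2 fold change -0.25 ± 0.21; adjusted p = 0.38). Wnt11 overlapped too, with diabetic 3 alone at 23.4 CPM against 7.71 to 11.4 CPM elsewhere. Wnt2 was at 1.72 to 2.12 CPM in controls, against 0.297 to 1.62 CPM in diabetic samples (adjusted p = 0.206, and 0.026 with diabetic 2 as the only diabetic sample), and Wnt16 at 0.762 to 2.25 CPM in all. Wnt1, Wnt2b, Wnt3, Wnt3a, Wnt6 and Wnt8b were under the filter, none above 0.349 CPM in any sample.

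On the FPKM scale, which divides by gene length and so allows genes to be compared, the summed level of all Wnt ligands was 21.6 ± 4.24 (SD, n = 3) in control and 135 ± 25.1 in diabetic glomeruli. In controls Wnt5b made up 32.4% of this sum, Wnt5a 23.5%, Wnt11 12.7% and Wnt9a 10.4%. In diabetic samples Wnt7b made up 32.6%, Wnt7a 30.3%, Wnt9a 17.6% and Wnt10a 5.61%, while Wnt5b was at 2.01%. The ligand pool thus had other leading members in the 2 groups, and Wnt7a went from 0.943% to 30.3% of it. FPKM were taken as deposited, without the TMM scaling used for CPM. TMM factors were 0.916 to 0.950 in controls and 1.04 to 1.08 in diabetic samples. Diabetic samples therefore stand somewhat higher against controls in FPKM than in CPM.

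**Figure D3:**
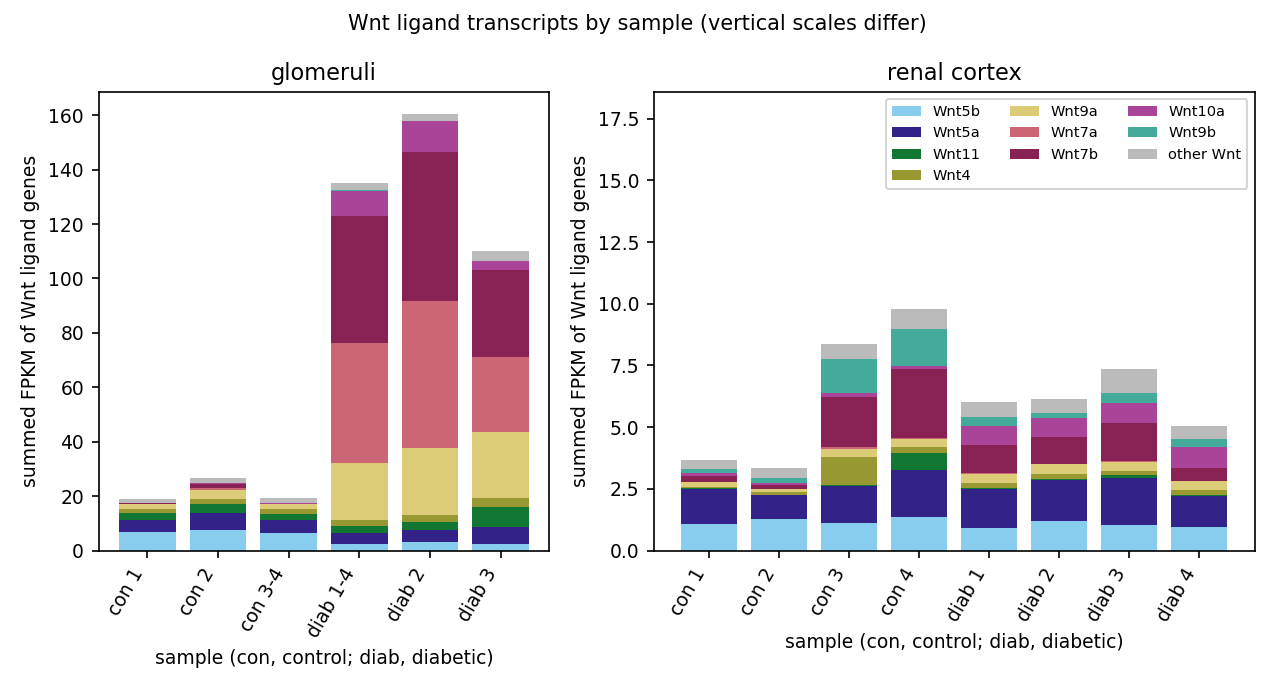
Summed FPKM of the Wnt ligands in each glomerular sample (left) and each cortex library (right, on a smaller vertical scale), stacked by gene. The 3 diabetic glomerular samples reach 110 to 161 against 19.0 to 26.5 in controls, most of it Wnt7a, Wnt7b and Wnt9a, whereas the cortex groups overlap and control cortex libraries 3 and 4 are the 2 tallest.

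Several Wnt genes lie in neighbouring pairs. On GRCm38, Wnt6 ends 6193 bases before Wnt10a on chromosome 1, Wnt3a and Wnt9a lie 16175 bases apart on chromosome 11, Wnt9b and Wnt3 24328 bases apart on the same chromosome, and Wnt10b and Wnt1 11706 bases apart on chromosome 15. In each of these 4 pairs the gene that rose in diabetic glomeruli (Wnt10a, Wnt9a, Wnt9b, Wnt10b) had a neighbour under the filter. Wnt6 was at 0.349, 0.106 and 0.305 CPM in controls, against 0.0734, 0.0228 and 0.119 CPM in diabetic samples. Wnt1 reached 0.191 CPM, Wnt3 0.0953 CPM and Wnt3a 0.0245 CPM at most.

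Among the receptors, 5 of 9 tested Frizzled genes were called in diabetic glomeruli, 2 higher and 3 lower. Fzd4, the receptor for norrin and a regulator of retinal vessels, was at 31.3, 34.8 and 30.3 CPM in controls, against 105, 81.1 and 62.6 CPM in diabetic samples. Every diabetic sample was above every control (2.59-fold; log2 fold change 1.37 ± 0.19; edgeR adjusted p = 0.00267). Fzd6, which acts in planar cell polarity, rose from 50.2, 47.9 and 51.8 CPM to 81.5, 95.7 and 85.6 CPM, with little spread in either group (log2 fold change 0.81 ± 0.09; adjusted p = 0.00124).

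Fzd2 fell, from 222, 182 and 193 CPM to 70.3, 75 and 95.1 CPM, and remained the most abundant Frizzled gene per length of both groups (51.3 ± 4.44 FPKM in controls and 23.5 ± 3.33 in diabetic samples, SD, n = 3). Its groups lay far apart (log2 fold change -1.31 ± 0.14; edgeR adjusted p = 0.00122). Fzd7 went from 109, 92 and 90.8 CPM to 42.6, 47.6 and 60 CPM, again with every diabetic sample lower (log2 fold change -0.96 ± 0.15; adjusted p = 0.0037). Fzd8 went from 42.3, 31.4 and 38.5 CPM to 22.9, 24.3 and 24.4 CPM. The gap between its groups was smaller (log2 fold change -0.65 ± 0.12; adjusted p = 0.00742), and the call was not reached when diabetic 2 was the only diabetic sample. For Fzd2, Fzd7 and Fzd8 the diabetic samples had the same order as the smooth muscle and renin marker sum (3660, 4253 and 6395 CPM). The stromal sum (1423, 1618 and 4231 CPM) had that order too. In controls, with smooth muscle sums of 20396, 19058 and 17926 CPM, Fzd7 followed the order and Fzd2 and Fzd8 did not. Of the other lowered members, Dkk3 and Rspo3 had the order in diabetic samples, and Lgr4, Dkk2, Wnt5b and Rspo1 did not. The part of smooth muscle, renin and stromal cells was not tested. Fzd1 was at 40.2, 31.8 and 37.3 CPM in controls, against 32.1, 33.1 and 29.4 CPM in diabetic samples. It and Fzd3 (18.9 to 25.9 CPM) had overlapping groups. Fzd5 was at 33.2 to 37.9 CPM in controls, against 27.6 to 32.2 CPM in diabetic samples without a call (adjusted p = 0.0943), and Fzd9 stayed under 0.4 CPM. Fzd10 was under the filter. The summed FPKM of the Frizzled family, without TMM scaling, was 110 ± 7.52 in controls and 89.8 ± 1.46 in diabetic samples.

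Neither co-receptor was called in glomeruli. Lrp5 was at 104, 101 and 96 CPM in controls, against 86.9, 83.3 and 92.7 CPM in diabetic samples. The diabetic values were all slightly lower (log2 fold change -0.20 ± 0.08; edgeR adjusted p = 0.0895, and 0.0499 with DESeq2). Lrp6 was at 122, 140 and 206 CPM and 120, 125 and 122 CPM, where the summed control pair stood above all the rest (log2 fold change -0.35 ± 0.19; adjusted p = 0.186).

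**Figure D4:**
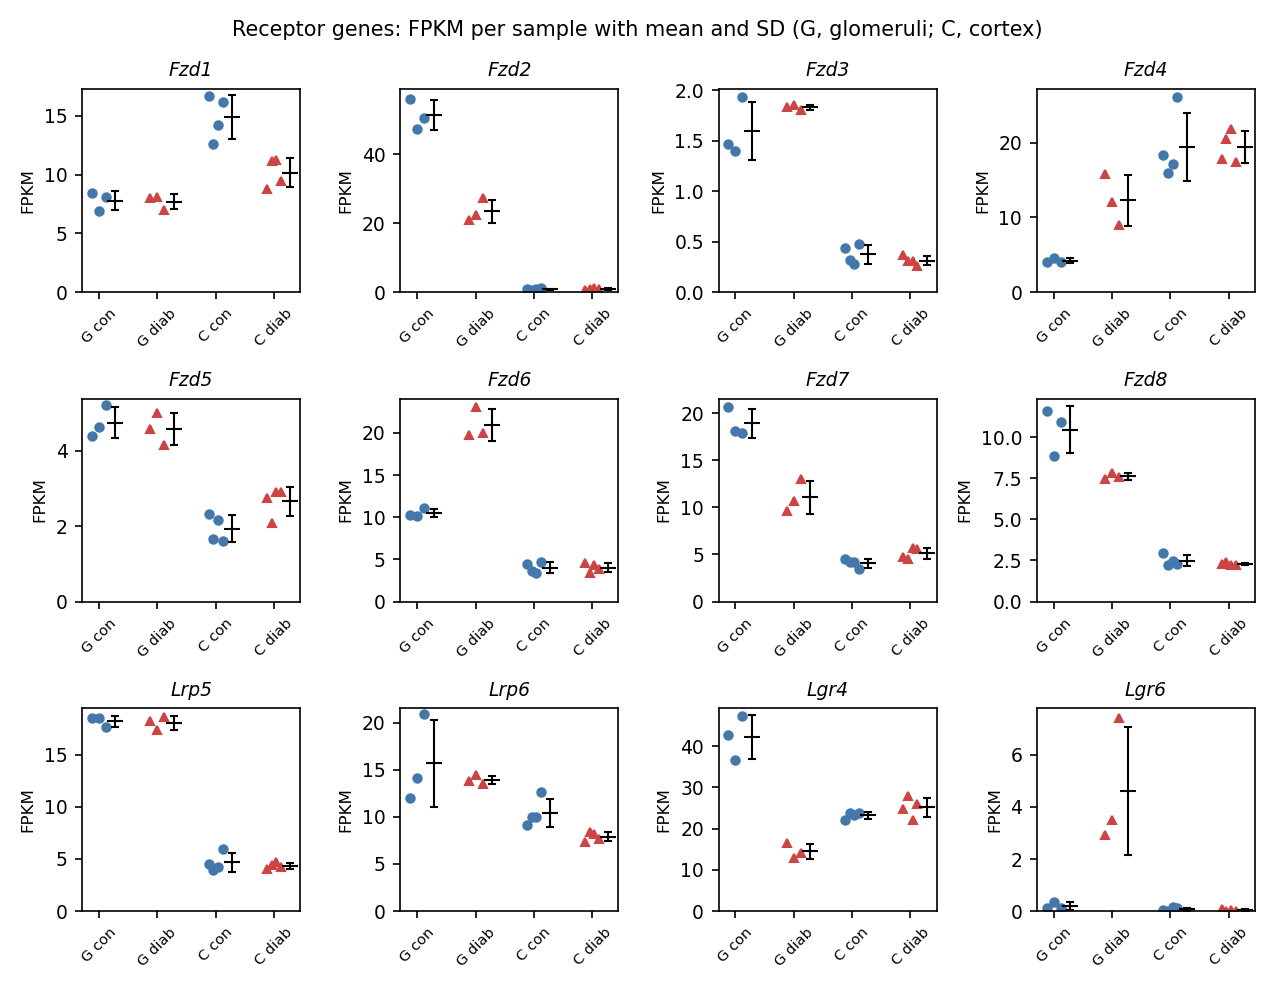
FPKM per sample with mean and SD for 8 Frizzled genes, both co-receptors, Lgr4 and Lgr6 in control (blue circles) and diabetic (red triangles) glomeruli (3 samples a group) and cortex (4 libraries a group), each panel with its own linear axis from 0. On the glomerular side Fzd2, Fzd7 and Lgr4 step down and Fzd4, Fzd6 and Lgr6 step up in diabetic samples, and on the cortex side Fzd1 and Lrp6 are lower in diabetic libraries.

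The secreted antagonists were led in control glomeruli by Dkk3, a divergent Dkk protein, at 585, 719 and 468 CPM. It was at 124, 148 and 316 CPM in diabetic samples, with diabetic 3 highest but still under every control (0.332 of the control mean; log2 fold change -1.59 ± 0.37; edgeR adjusted p = 0.0172). The call was lost without control 1, the summed diabetic pair or diabetic 2 (adjusted p of 0.0503 to 0.0579). Dkk2, a classical Lrp6 ligand, fell from 133, 146 and 121 CPM to 97.4, 74.2 and 66.6 CPM, and its groups did not meet (log2 fold change -0.75 ± 0.16; adjusted p = 0.0112). Dkk1 was under the filter, with 5 counts over the controls and 2 over the diabetic samples. The summed FPKM of the Dkk genes was 187 ± 36.1 in controls and 80.3 ± 25.7 in diabetic samples.

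Sfrp1 was at 2.95, 2.65 and 2.26 CPM in controls, against 98.1, 9.06 and 48.1 CPM in diabetic samples. All diabetic samples were above the controls, and they ranged widely among themselves (log2 fold change 4.32 ± 0.83; edgeR adjusted p = 0.00836). With diabetic 2 as the only diabetic sample the log2 fold change was 1.82, and without the summed diabetic pair 3.48. Proximal tubule markers summed to 88.8 to 117 CPM in controls, against 1408, 122 and 670 CPM in the diabetic samples, and distal nephron markers to 58.8 to 79.3 CPM and then 1808, 92.9 and 846 CPM. The order of the diabetic samples was the same for Sfrp1 and both sums, and their part in the result was not tested. Sfrp2, the most abundant Sfrp gene per length in glomeruli (35.6 ± 7.59 FPKM in controls), was at 83.4, 88.2 and 57.1 CPM and 82.5, 70.5 and 37.9 CPM with overlapping groups (adjusted p = 0.536). Sfrp4 and Sfrp5 were under the filter.

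Both tested R-spondins, which amplify Wnt signals, fell in diabetic glomeruli. Rspo3 went from 7.06, 7.7 and 8.16 CPM to 1.15, 1.35 and 2.38 CPM, the controls close together and all well above the diabetic samples (0.213 of the control mean; log2 fold change -2.24 ± 0.31; edgeR adjusted p = 0.00256). Rspo1 went from 3.28, 2.01 and 3.22 CPM to 1.14, 1.19 and 0.667 CPM without overlap (log2 fold change -1.50 ± 0.34; adjusted p = 0.0149). Its call was lost without control 1 (adjusted p = 0.0516) and without the summed control pair (0.0548). Rspo2 and Rspo4 were under the filter, at no more than 0.0794 and 0.0228 CPM. Stromal markers, summed, were at 6754 to 6903 CPM in controls, against 1423, 1618 and 4231 CPM in the diabetic samples. Diabetic 3 was likewise the highest of its group for Rspo3 and Dkk3, but the lowest for Rspo1. The part of stromal cells in these results was not tested.

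The R-spondin receptors moved apart. Lgr4, at chr2:109917647-110014257, was at 239, 200 and 256 CPM in controls, against 78.4, 61.1 and 69.5 CPM in diabetic samples. The groups were far apart relative to their spread, and it had the smallest adjusted p of all members (0.301 of the control mean; log2 fold change -1.73 ± 0.14; edgeR adjusted p = 0.000544). Lgr6, at chr1:134983301-135105276, rose from 0.886, 2.72 and 0.852 CPM to 19.1, 23.1 and 50.9 CPM, with diabetic 3 highest (20.9-fold; log2 fold change 4.41 ± 0.62; adjusted p = 0.00282, and 5.15 without control 2). Lgr5, a stem cell marker, was at 0, 0.238 and 0.0127 CPM in controls, against 0.832, 0.776 and 2.84 CPM in diabetic samples. Only 10 counts stood behind its control group and 221 behind its diabetic group, and its call (log2 fold change 4.30 ± 1.15; adjusted p = 0.0271) was lost in 6 of 15 alternatives, among them leaving out control 1, the summed control pair, the summed diabetic pair or diabetic 3. Without control 2 its log2 fold change was 7.11. Per length, Lgr4 stayed the most abundant of the 3 in both groups, at 42.2 ± 5.31 FPKM in controls and 14.5 ± 1.9 FPKM in diabetic samples, against 4.61 ± 2.46 FPKM for Lgr6 in diabetic samples.

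Of the receptor-removing ligases, Rnf43 rose from 0.161, 0.317 and 0.127 CPM to 4.75, 3.74 and 2.55 CPM. Every diabetic sample was well above every control (18.2-fold; log2 fold change 4.23 ± 0.46; edgeR adjusted p = 0.00121). Its partner Znrf3 was at 16.7, 19.4 and 20.9 CPM and 15.7, 13.9 and 16.9 CPM, with overlapping groups (adjusted p = 0.111), and stayed above Rnf43 per length in both groups (2.33 ± 0.303 against 0.0418 ± 0.0213 FPKM in controls and 2.15 ± 0.18 against 0.869 ± 0.276 FPKM in diabetic samples).

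Tcf7, a DNA-binding partner of beta-catenin, rose from 2.26, 4.29 and 2.7 CPM to 8.02, 9.15 and 9.82 CPM, with no overlap (2.92-fold; log2 fold change 1.55 ± 0.27; edgeR adjusted p = 0.0056). Lef1 was at 2.53, 2.65 and 1.69 CPM and 2.66, 2.83 and 7.05 CPM. The groups did not meet, but the summed diabetic pair and diabetic 2 were nearly level with the controls and diabetic 3 stood apart (adjusted p = 0.165). Axin2, a negative feedback target that is widely read as a measure of beta-catenin signalling, was at 1.34, 3.28 and 1.12 CPM in controls, against 2.8, 3.58 and 4.84 CPM in diabetic samples. Control 2 lay within the diabetic range, and the test did not pass (log2 fold change 0.97 ± 0.46; adjusted p = 0.144). Without control 2 it passed (log2 fold change 1.59; adjusted p = 0.0186).

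The other Wnt pathway genes were read from 5 lists, to be set against the 19.4% of all tested genes that rose and the 18.2% that fell. Of 15 tested genes for Wnt secretion and extracellular control, 1 rose and 3 fell in diabetic glomeruli: Sostdc1, a co-receptor antagonist, rose (0.554 ± 0.195 to 14.5 ± 13.5 CPM), and Wls, the carrier that brings Wnts to the cell surface (921 ± 115 to 487 ± 82.3 CPM), the glypican Gpc4 (339 ± 52.6 to 111 ± 23.3 CPM) and the Dkk receptor Kremen1 (144 ± 5.11 to 106 ± 1.03 CPM) fell. Sostdc1 was at 28.9, 2.08 and 12.6 CPM in the diabetic samples, the same order as Sfrp1 and both tubule marker sums. In control cortex it was at 55.9 to 67.7 CPM. The part of tubule cells in the Sostdc1 rise was not tested. Of 25 genes of the destruction complex and Dishevelled, 3 rose and 9 fell, among them Dact3 (log2 fold change -2.13), Cxxc4 (-2.89) and Dvl2 (-0.91) lower and Dact2 (2.67) higher. Of 17 nuclear effectors 1 rose and 5 fell, with Tle4, Tcf7l1, Tle1 and Pygo1, the 4 with the smallest adjusted p, all lower. Planar polarity and non-canonical receptor genes were evenly divided, 7 higher and 7 lower of 22, led by Celsr1 (3.23 ± 0.737 to 37.3 ± 6.16 CPM), Nfatc2, Camk2b and Vangl2, all higher. Of 26 beta-catenin target genes 9 rose and 7 fell. Ephb2 (1.42 ± 0.905 to 47.9 ± 8.64 CPM), Sox9 (7.2 ± 2.54 to 46.2 ± 6.15 CPM), Fst (14.9 ± 2.26 to 62.1 ± 15.7 CPM) and Plau (148 ± 7.36 to 835 ± 299 CPM), all higher, led that list by adjusted p. Several of its genes also answer to other pathways. Tcf7l1, named above as lower, is a target gene on this list too, and Notum, Apcdd1 and Dact1 are likewise shared with other lists. The list counts are therefore not independent. The median log2 fold changes of these lists, in the order given, were -0.12, -0.13, -0.11, 0.07 and 0.54, against 0.01 for all genes.

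In diabetic against control cortex, 4 of 37 tested members were called, 2 higher (Wnt10a and Tcf7) and 2 lower (Fzd1 and Lrp6), by edgeR. Over all 19228 genes tested 20.1% were called, 10.8% higher and 9.29% lower. At an unadjusted p under 0.05 there were also Fzd5 and Fzd7, both higher, and DESeq2 called Fzd5 beside the other 4. The groups did not overlap for 5 of 37 members, against 24.9% of all genes. The median log2 fold change was -0.03 over the members and -0.00 over all genes. Cortex values follow in the order control 1 to 4, then diabetic 1 to 4.

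Wnt10a was at 0.309, 0.148, 0.439 and 0.226 CPM in control cortex and at 2.1, 2.02, 2.11 and 2.28 CPM in diabetic cortex. The diabetic libraries were nearly level with each other and all above the controls (7.59-fold; log2 fold change 2.91 ± 0.32; edgeR adjusted p = 0.000614). Tcf7 went from 0.737, 0.944, 0.629 and 1.02 CPM to 1.7, 1.44, 2.11 and 1.91 CPM, also without overlap (2.15-fold; log2 fold change 1.10 ± 0.24; adjusted p = 0.0114). Fzd1 fell from 76.8, 60.9, 65.8 and 70.3 CPM to 40.9, 49.3, 48.5 and 43.1 CPM (log2 fold change -0.59 ± 0.09; adjusted p = 0.00184). Its highest diabetic library was below its lowest control. Lrp6 fell from 137, 156, 151 and 178 CPM to 111, 120, 115 and 114 CPM, the diabetic libraries close together and all lower (log2 fold change -0.44 ± 0.08; adjusted p = 0.00449). Macrophage and myeloid markers were higher in diabetic cortex for 8 of 10 genes, with sums of 216 to 382 CPM in controls, against 529 to 821 CPM in diabetic libraries, and 7 of 14 proximal tubule markers were lower. Their part in these changes was not tested.

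The remaining cortex members were not called. Fzd5 was at 17.6, 13.1, 16.4 and 11.5 CPM in controls, against 21.1, 15.1, 20.6 and 21.7 CPM in diabetic libraries. The groups overlapped through diabetic library 2 (log2 fold change 0.42 ± 0.16; edgeR adjusted p = 0.0842, 0.0421 without that library, and 0.0449 with DESeq2). Wnt7b was at 1.27, 1.09, 11.1 and 14.3 CPM in controls, against 6.28, 5.48, 7.78 and 2.82 CPM in diabetic libraries, and Wnt9b, the ligand of the collecting duct and ureteric bud, at 0.977, 1.2, 6.87 and 7.06 CPM and 1.84, 0.995, 1.83 and 1.55 CPM. Control libraries 3 and 4 stood above the other controls for both. The urothelial genes Upk1a (2.31, 0.259, 8.89 and 4.58 CPM in controls) and Upk3a (0.531, 0, 3.97 and 5.1 CPM) were highest in the same 2 libraries. These 2 genes were chosen after their values were seen, and their part was not tested. Control libraries 3 and 4 were then left out, a choice made after seeing their high Wnt7b and Wnt9b. With them left out, 5 members were called higher: Wnt10a and Tcf7 as before, and also Wnt7b (log2 fold change 2.24 ± 0.39; edgeR adjusted p = 0.00541), Wnt9a (1.31 ± 0.33; 0.0215) and Wnt6 (7.07 ± 1.88; 0.0314). The Wnt7b value follows from the choice of libraries and is no separate test of that gene. The libraries left out also held the highest control values of Wnt9a and every control count of Wnt6. Those calls are therefore no separate support either. Wnt6 then had no control count, so that its fitted fold change is no bound. With all libraries, Wnt9a was at 0.634, 0.426, 1.16 and 1.1 CPM in controls, against 1.3, 1.33, 1.25 and 1.41 CPM in diabetic cortex, without overlap but without a call (adjusted p = 0.18).

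The most abundant members of each family per length in control cortex were Wnt5a (1.44 ± 0.366 FPKM in controls, SD, n = 4), Fzd4 (19.4 ± 4.57), Sfrp1 (21.8 ± 3.3), Dkk3 (4.97 ± 2.12), Rspo3 (0.133 ± 0.147) and Lgr4 (23.3 ± 0.833). In diabetic cortex they were at 1.6 ± 0.272, 19.4 ± 2.13, 24.8 ± 2.95, 6.72 ± 1.14, 0.116 ± 0.0469 and 25.2 ± 2.39 FPKM, and none was called. In diabetic cortex Rspo1, at 0.116 ± 0.0734 FPKM, was level with Rspo3. Wnt5a was at 12, 8.92, 12.9 and 15.2 CPM in control libraries, against 13.8, 13.8, 15.2 and 10.5 CPM in diabetic libraries, and Fzd4 at 136, 123, 127 and 181 CPM, against 133, 144, 151 and 127 CPM. Control library 4 was the highest control for both. Sfrp1 was at 117, 116, 110.2 and 76.7 CPM, against 99.98, 121, 122 and 119 CPM, with control 4 the lowest. Dkk3 was at 20.3, 10.9, 14.3 and 26.7 CPM, against 24.8, 21.7, 28.8 and 20.8 CPM. Rspo3 stayed low, at 0.171, 0.37, 1.21 and 0.113 CPM, against 0.283, 0.547, 0.485 and 0.259 CPM, with control 3 apart from the rest. Lgr4 was at 143, 161, 151 and 145 CPM, against 161, 172, 134 and 166 CPM. The groups overlapped for all 6 genes.

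The summed FPKM of all Wnt ligands was 6.29 ± 3.26 in control and 6.14 ± 0.948 in diabetic cortex. The single genes without a call in cortex had overlapping groups. Axin2 was at 0.651, 0.296, 1.11 and 1.61 CPM in controls, against 1.19, 0.505, 1.75 and 1.21 CPM in diabetic libraries, and Lef1 at 0.36, 0.278, 0 and 0.495 CPM, against 0.467, 0.406, 0.689 and 0.194 CPM. The co-receptor Lrp5 was at 48.6, 44.1, 45.5 and 59.7 CPM, against 43.1, 44.6, 47 and 45 CPM. Of the ligases, Rnf43 was at 6.34, 5.29, 6.35 and 9.04 CPM, against 5.61, 4.4, 6.75 and 6.12 CPM, with control 4 the highest. Znrf3 was at 11.8, 11, 11.4 and 12.8 CPM, against 10.4, 10.8, 11.5 and 12 CPM. None of the 4 Sfrp, 2 Dkk, 1 Rspo and 3 Lgr genes tested was called, and none had an unadjusted p under 0.05. DESeq2 made no call among them either. A further 13 members were under the filter, and of these Rspo2, Wnt1 and Wnt3a had no count in any cortex library.

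Of the lists of other Wnt genes, to be set against 10.8% of all tested genes higher and 9.29% lower, the cortex had 4 of 25 beta-catenin target genes higher and 0 lower by edgeR: Sox9 (0.879 ± 0.292 to 4.49 ± 1.47 CPM), Fgf18 (0.41 ± 0.198 to 2.43 ± 0.459 CPM), Cd44 (1.92 ± 0.424 to 7.53 ± 3.69 CPM) and Ccnd1 (137 ± 36.9 to 238 ± 40.4 CPM). Secretion and extracellular genes had 1 higher (Gpc3) and 4 lower of 15, among them Sostdc1, Gpc4 and the Wnt-binding antagonist Wif1 (1.4 ± 0.299 to 0.65 ± 0.142 CPM). Destruction complex and Dishevelled genes had 1 higher (Dvl1) and 3 lower (Axin1, Tnks2 and Csnk1g3) of 25. Nuclear effectors had Tle2 lower and none higher of 16. Planar polarity genes had 2 higher, among them Camk2b, and 5 lower, among them Celsr2, Invs and Vangl1, of 22. The list medians were 0.10 for the target genes, -0.29, 0.01, -0.05 and 0.02 for the others in the order given, and -0.00 for all genes.

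**Figure D5:**
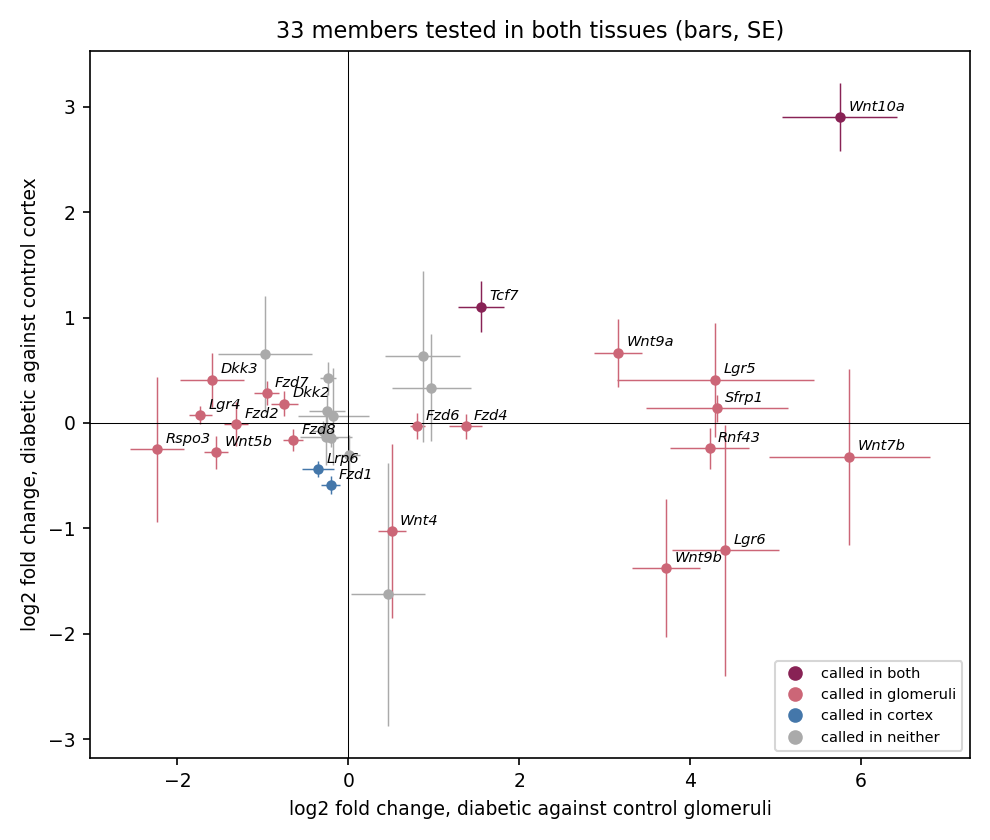
Log2 fold change of diabetic against control in glomeruli (horizontal) and cortex (vertical) with SE for the 33 members tested in both tissues, coloured by where they were called. Wnt10a and Tcf7 lie to the upper right, called in both, and most members called in glomeruli lie near 0 on the cortex axis or have wide bars there.

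Of the 33 members tested in both tissues, 20 were called in glomeruli, 4 in cortex and 2 in both, Wnt10a and Tcf7, in the same direction. None was called in opposite directions. Over all 13933 genes tested in both, 37.6% were called in glomeruli, 23.9% in cortex, 5.27% in both in the same direction and 4.39% in both in opposite directions. The difference of the diabetic effect between the tissues was tested in a model of all 4 groups. It was called for 20 of 41 members, with a higher effect in glomeruli for 11 and a lower effect for 9, where 35% of all 16507 genes were called, 18.8% higher and 16.2% lower. By smallest adjusted p the members were Lgr4 (difference of log2 fold changes, glomeruli minus cortex, -1.80 ± 0.17; edgeR adjusted p = 6.32e-06), Rnf43 (4.51 ± 0.44; 8.57e-06), Wnt5b (-1.27 ± 0.18; 0.000186), Wnt9a (2.51 ± 0.40; 0.000421), Fzd7 (-1.24 ± 0.20; 0.000428), Fzd4 (1.41 ± 0.23; 0.000513), Sfrp1 (4.20 ± 0.77; 0.00128) and Fzd2 (-1.29 ± 0.25; 0.00165). Wnt10a rose in both tissues and by more in glomeruli (difference 2.85 ± 0.66; adjusted p = 0.00511). For Tcf7 the difference did not pass (0.45 ± 0.34; adjusted p = 0.333). Nor did it for Fzd1 (0.39 ± 0.15; 0.0582) and Lrp6 (0.08 ± 0.21; 0.79), which were called in cortex and not in glomeruli. The difference for Fzd1 passed in 5 of 22 alternatives, among them leaving out glomerular control 1 (0.0434) or cortex control 2 (0.0382), and that for Lrp6 without the summed glomerular control pair (0.36; 0.0418). The weakest calls of a difference were those of Fzd8 (adjusted p = 0.0427), lost in 14 of 22 alternatives, Fzd5 (0.0309), lost in 10, and Lgr5 (0.0294), lost in 6, in each case with several single libraries left out. Without cortex control libraries 3 and 4, the counts were 8 higher and 9 lower. Fzd5, Fzd8, Lgr5, Lgr6 and Wnt7a were no longer called, and Rspo3 and Wnt6 were called lower. The differences for Wnt9a, Wnt9b and Wnt7b were then 1.86, 3.20 and 3.65. Those libraries were left out for their high Wnt7b and Wnt9b, so the values of these genes are no separate test. Wnt6 then had no count in control cortex, so its call rests on that choice too.

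Comparing the 2 control tissues uses the same control samples as the comparisons above. The tables of the tissues were made and normalized separately, on different gene annotations, so that a level can differ between tissues for that reason alone. Of 41 members tested, 24 were higher and 8 lower in control glomeruli than in control cortex, 32 in all, where 78.4% of all genes were called, 38.7% higher and 39.7% lower. Fzd2 was at 51.3 ± 4.44 FPKM in control glomeruli and 0.83 ± 0.189 FPKM in control cortex (log2 difference 5.61 ± 0.20; edgeR adjusted p = 4.06e-11). Sfrp2 (35.6 ± 7.59 against 0.584 ± 0.157 FPKM; log2 difference 5.47), Rspo1 (1.42 ± 0.35 against 0.0183 ± 0.0125 FPKM; 5.55) and Dkk3 (154 ± 33 against 4.97 ± 2.12 FPKM; 4.72) were higher in glomeruli as well. Wnt10b had 130 counts over the control glomeruli and none over the 4 control cortex libraries, so that it was at least 70.9-fold higher in glomeruli when the cortex group is set to 3 counts in all (0.0119 CPM; counting error only).

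The members lower in control glomeruli were Sfrp1 (0.546 ± 0.0624 FPKM against 21.8 ± 3.3 FPKM in control cortex; log2 difference -5.63 ± 0.66; edgeR adjusted p = 4.68e-06), Rnf43 (0.0418 ± 0.0213 against 0.943 ± 0.269 FPKM; -5.43), Wnt9b (0.00785 ± 0.00322 against 0.83 ± 0.712 FPKM; -6.54, and -4.64 without cortex control libraries 3 and 4), Fzd4, Fzd1, Wnt2b, Sfrp4 and Sfrp5. Sfrp5 had 167 counts over the control cortex and none over the control glomeruli, so that it was at least 34.0-fold lower in glomeruli when that group is set to 3 counts in all (0.0195 CPM). Sfrp4 had 1 count over the control glomeruli, so no size is given. In diabetic glomeruli, against the same control samples, Sfrp1, Rnf43, Wnt9b and Fzd4 stood at 12.3 ± 10.8, 0.869 ± 0.276, 0.129 ± 0.0046 and 12.3 ± 3.41 FPKM in that order. Wnt7a, which was not called between control tissues, was at 0.0361 ± 0.0327 FPKM in control cortex, 0.0195 ± 0.0141 FPKM in diabetic cortex, 0.241 ± 0.355 FPKM in control glomeruli and 41.8 ± 13.3 FPKM in diabetic glomeruli.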

How the data were processed

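Per the labels' protocols, total RNA came from a Qiagen RNeasy kit and libraries from a SMARTER kit for mRNA. The submitters' processing notes name GRCm38 and mm10. Aligner, counting tool, annotation and strand setting: not given in the sources used here. The authors deposited whole-number read counts per gene symbol for glomeruli. The cortex values the authors deposited, by Ensembl identifier, are whole too, but look like estimated counts after rounding, since 15 values above 0 had an FPKM of 0. The authors also deposited FPKM values for both, per length and library size.

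Names and positions came from GENCODE release M21, which matched 19765 glomerular symbols directly and 323 through synonyms, leaving 4634 with 4.11% of counts, and 31953 cortex identifiers. The tables joined at 19043 genes. Within each group, pairs of libraries were compared by chi-square over genes with at least 10 counts in the pair, and a pair closer than all others by a factor over 5 was summed. The test for every gene was edgeR 4.0.16 in R 4.3.3: filterByExpr, TMM scaling, robust glmQLFit and glmQLFTest, Benjamini-Hochberg adjustment over all genes, threshold 0.05. Each tissue was fitted alone, and contrasts between tissues were fitted on the joined genes. The tests were run on simulated data first. Fold changes quoted as N-fold are ratios of mean CPM. DESeq2 1.42.0, limma 3.58.1 on log2 FPKM and left-out libraries served as alternatives. Counts are not corrected for duplicate molecules, so floors cover counting error only.

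The members and the gene lists were chosen with earlier results of these data known. Members are given in every sample of a tissue if called there, if the most abundant of their family in its controls, or if among the 7 single genes; from each other list up to 4 genes with the smallest adjusted p are named. Between tissues the 5 largest differences in each direction and the 8 smallest adjusted p of the difference of effects are named.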

Additional observations from a re-analysis of the deposited data

Results flagged for a closer look

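Within the cortex groups of 4 libraries, 4 of 74 group values of the members had a highest or lowest library whose gap to the next, as a share of the group's range, was past Dixon's critical value, which chance alone gives in about 1 in 20 groups. Sfrp1 was lowest in control library 4, at 76.7 CPM (next 110.2 CPM), and lowest in diabetic library 1, at 99.98 CPM (next 118.6 CPM). Wnt11 was highest in control library 4, at 3.08 CPM (next 0.24 CPM). Wnt4 was highest in control library 3, at 5.27 CPM (next 0.933 CPM).

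The diabetic effect differed between glomeruli and cortex by edgeR's test of the difference for 20 members. The difference of log2 fold changes, glomeruli minus cortex, was positive for Wnt7a (8.32), Wnt7b (6.21), Lgr6 (5.65), Wnt9b (5.09), Rnf43 (4.51), Sfrp1 (4.20), Lgr5 (3.86), Wnt10a (2.85), Wnt9a (2.51), Fzd4 (1.41) and Fzd6 (0.84). It was negative for Rspo1 (-3.81), Dkk3 (-1.99), Lgr4 (-1.80), Fzd2 (-1.29), Wnt5b (-1.27), Fzd7 (-1.24), Dkk2 (-0.92), Fzd5 (-0.66) and Fzd8 (-0.48). Wnt7a and Rspo1 had few counts in cortex and were under its filter there.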

How the results depend on the processing

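Over the alternatives, the number of members called ranged from 10 to 14 higher and 7 to 13 lower in diabetic glomeruli, from 2 to 5 higher and 2 to 2 lower in diabetic cortex, from 8 to 13 higher and 7 to 11 lower for the difference of effects, and from 22 to 25 higher and 8 to 10 lower between control tissues. Leaving out 1 sample at a time gave 12 to 14 higher and 7 to 10 lower in glomeruli. Without cortex control libraries 3 and 4, a choice made after seeing the data, 5 members were called higher in diabetic cortex against 2. For single members, 77 results over the 4 comparisons gave 1318 values under other settings, of which 1233 kept direction and side of the threshold, 56 lost a call, 18 gained one and 11 changed direction. Losses were 23 in diabetic against control glomeruli and 33 for the difference of effects. The changes of direction were in members without a call: Sfrp2 in glomeruli (-0.46 to 0.031 with 1 sample left out), Wnt7b in cortex (0.0026 and 0.33 with limma on FPKM with 1 and 0.1 added, -0.67 to 0.31 with 1 library left out, 0.44 with the block, 2.24 without controls 3 and 4) and the Lrp6 difference (-0.023 on 8 separate glomerular libraries, -0.068 to 0.36 with 1 sample left out, -0.0061 with the block, -0.0046 without cortex controls 3 and 4). Their cause was not tested. With diabetic 2 as the only diabetic glomerular sample, assumed to vary like the controls, 10 and 8 members were called, with Wnt2 newly lower, and Tcf7, Fzd8, Wnt10b, Rspo1, Lgr5 and Wnt4 were not. With library totals in place of TMM the median of all glomerular genes moved from 0.01 to 0.20 and the share of calls that were higher from 51.6% to 72.5%, with 14 and 9 members called as before. That share moved from 53.7% to 63.5% in cortex and from 53.7% to 68.9% for the difference of effects. Same-numbered libraries did not deviate together within a tissue (r of -0.058 to 0.107 in glomeruli and -0.103 to 0.043 in cortex) or between glomeruli and cortex of the same condition (-0.072 to 0.055), so the numbers were not taken to pair samples. With a replicate block, on 8 separate glomerular libraries, 14 members were called higher and 10 lower in glomeruli. In cortex 2 and 2 were called, and for the difference of effects 12 and 11. In glomeruli Axin2 (1.15, edgeR adjusted p = 0.0313) and Fzd5 (-0.27, 0.0384) were then called and Wnt4 was not (0.0518). That glomerular fit counts the near-identical libraries as separate samples, so its p-values can be too small. Members with few counts, such as Wnt9b and Lgr5 in glomeruli, are limited by depth.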
